A study of Drosophila melanogaster with 12 samples.

Results

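The gut lipases described here are 10 genes of Drosophila melanogaster, taken as every probe set whose only platform gene symbol is mag, Lip1, Lip3, Lip4, CG8093, CG6295, CG6271, CG6277, CG6283 or CG5966. Each has 1 probe set, which makes 10 of the 13966 fly probe sets on the array and 10 of its 10844 singly named genes. RNA of whole animals was hybridised to 12 arrays, 1 for each hour from 1 to 12 after adults were given food with yeast again. All of these flies had been moved to food without yeast early in the last larval stage and stayed on it until 4 days after they emerged. The labels give 1 treatment for the 12 arrays and no strain, sex or number of flies, and flies left without yeast were not analysed here. Hour cannot be told apart from time of day, age or order of handling, and p-values measure only the spread of single arrays around a fitted curve, which may be technical.

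Flies digest dietary fat in the midgut, where secreted lipases cut triacylglycerol into fatty acids and smaller glycerides that enterocytes take up, rebuild into neutral fat and export on lipoproteins. These enzymes belong to separate families. Acid lipases are related to mammalian gastric and lysosomal lipase, and neutral lipases are related to pancreatic lipase and, through a lost active site, to the yolk proteins of flies. The product of mag, Magro, is a secreted gut acid lipase known to act on dietary triacylglycerol and sterol esters. Lip3 is known for a strong rise in starved flies, and Lip4 has been reported as a target of the transcription factor FOXO.

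By the gene order of RefSeq assembly Release 6 plus ISO1 MT, 4 of the members lie in an unbroken run of 7 neutral lipase genes on chromosome 3R, in the order CG6296, CG6295, CG17192, CG17191, CG6283, CG6277 and CG6271. The other members are scattered. mag lies on 3L and overlaps the gene atk, Lip3 lies on 3R and overlaps CheA87a, Lip1 and Lip4 lie on 2L, CG8093 on 2R and CG5966 on X. Probe sets of overlapping or closely similar genes may share signal, which was not tested, so their values are uncertain to that extent.

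Over the 12 hours 3 of the 8 members that could be tested rose and none fell, beside 8.44% of all 11586 tested probe sets that rose and 4.97% that fell (13.4% in either direction). The neutral lipase CG6295 rose by a fitted log2 change of 1.47 ± 0.23 from hour 1 to hour 12 (SE, n = 12 arrays), a fold of 2.77 with a 95% interval from 1.97 to 3.89. The acid lipase mag rose by 1.00 ± 0.17, a fold of 2.00 with an interval from 1.55 to 2.59. The neutral lipase CG6283 rose by 0.41 ± 0.12, a fold of 1.33 with an interval from 1.12 to 1.58. The limma adjusted p-values, over all tested probe sets, were 0.00115 for CG6295, 0.00231 for mag and 0.0311 for CG6283. The median fitted change was 0.00 over the 8 tested members and 0.01 over all tested probe sets. In RNA of whole flies, more cells of a kind and more RNA per cell cannot be told apart.

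**Figure D1:**
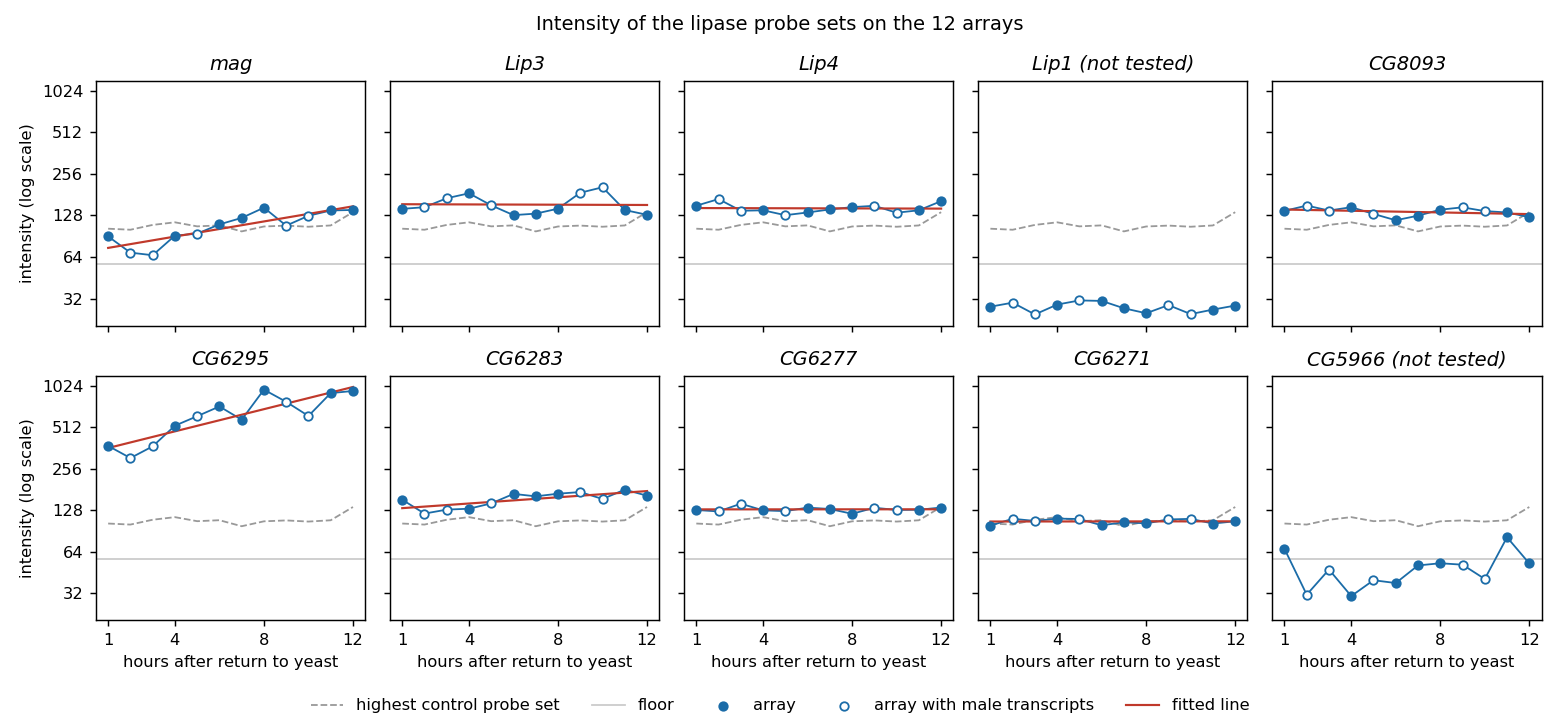
Intensity (log scale) of the 10 lipase probe sets at hours 1 to 12, with a red line for the limma fit where a probe set was tested, a dashed line for the highest bacterial or mouse control probe set on each array and a grey line for the floor of 57.2. CG6295 climbs from 375.4 at hour 1 to 938.9 at hour 12, mag crosses the control line near the middle of the series, and Lip1 stays under the floor on every array.

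The arrays themselves set limits to these readings. Median intensities of fly probe sets lay between 113.7 and 120.3 on the 12 arrays. The 19 bacterial and mouse control probe sets, which have no target in flies, reached at most 98.1 to 135.2 depending on the array, so a probe set in that range is not separated from background. CG6295, Lip4 and CG6283 exceeded the highest of these controls on all 12 arrays, Lip3, CG8093 and CG6277 on 11, mag on 6 and CG6271 on 5. Lip1 and CG5966 did so on none. Transcripts of the male accessory gland were present at hours 2, 3, 5, 9 and 10, where the mean log2 intensity of their list (15 genes on the array) was 6.45 to 6.72, against 5.90 to 5.94 on the other 7 arrays. Of those 15 genes 10 did not exceed the highest control on any array. The mean of a testis list (10 genes) split the same arrays, at 7.53 to 8.00 against 6.99 to 7.07. The labels give no sex, and values for the 7 arrays alone are given where a call was lost on them.

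CG6295 read 375.4, 306.4 and 372.4 at hours 1, 2 and 3, then 525.9, 616.0 and 725.0 at hours 4, 5 and 6. It went on at 581.1, 959.7 and 783.4 at hours 7, 8 and 9, and at 618.4, 905.8 and 938.9 at hours 10, 11 and 12. The 3 earliest arrays were the lowest of the series, and every array from hour 4 on lay above all of them. This split was taken from the values themselves, and no share of all tested probe sets was counted for it. The lowest value, at hour 2, and the highest, at hour 8, differed 3.13-fold. The residual spread of the 12 arrays around the line was 0.28 on the log2 scale. Among all tested probe sets its fitted change ranked 12th from the top. On the 7 arrays without male transcripts the change was 1.33 ± 0.22 (limma adjusted p = 0.00804), and on the 5 arrays that held them it was 1.51 ± 0.35 and did not pass (limma adjusted p = 0.143).

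mag read 90.2, 68.8, 65.9, 91.5 and 94.5 at hours 1 to 5. From hour 6 to hour 12 it read 110.3, 122.9, 145.8, 108.0, 127.4, 139.2 and 140.3. All 7 later arrays were above all 5 earlier ones, a split taken from these values, with no share of all tested probe sets counted for it. The earlier values are also those that lay under the highest control of their array, as did hour 9 by a small margin (108.1 for the control), so the early level of mag is only bounded from above and the fold rests on readings within the background range. With the floor raised to the 40th percentile of the table, an intensity of 94.3, the change was 0.67 ± 0.12 and still passed (limma adjusted p = 0.00228). On the 7 arrays without male transcripts mag changed by 0.75 ± 0.14 (limma adjusted p = 0.0129), and on the 5 with them by 1.22 ± 0.18 (limma adjusted p = 0.0544).

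CG6283, a neighbour of CG6295 in the run on 3R, read 152.8, 121.2, 129.5, 131.4 and 143.6 at hours 1 to 5 and between 154.7 and 180.8 from hour 6 on. Its highest value came at hour 11 and its lowest at hour 2. Hours 6 to 12 again lay above all earlier arrays, though the distance from hour 1 to hour 10 (154.7) was small. For this split too no share of all tested probe sets was counted. The call for CG6283 was the least stable of the 3. Dropping the array of hour 2 left 0.34 (limma adjusted p = 0.102), and dropping that of hour 3, 4 or 11 left 0.38 (limma adjusted p = 0.0672, 0.053 and 0.0926), none of which passed. On the 7 arrays without male transcripts it was 0.26 ± 0.13 and did not pass (limma adjusted p = 0.249).

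**Figure D2:**
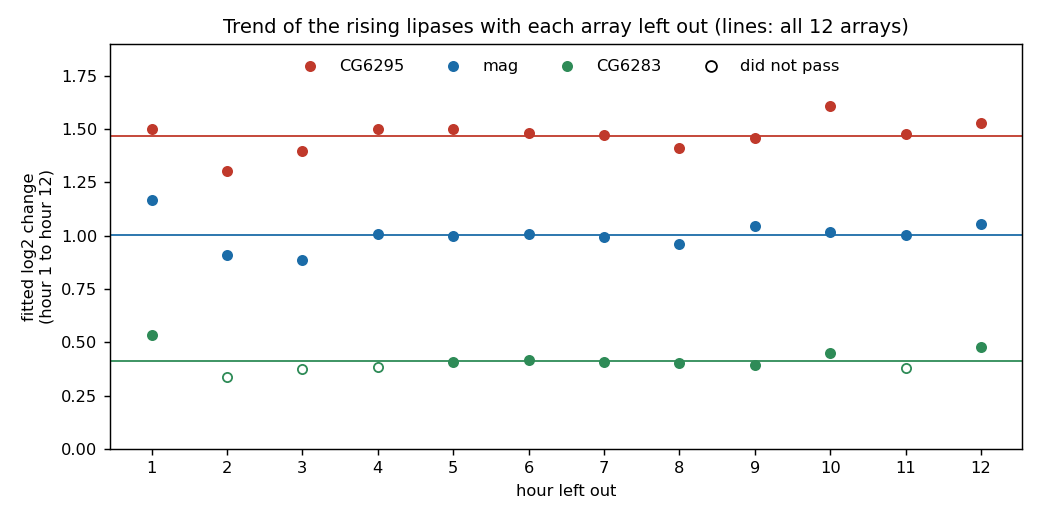
Fitted log2 change from hour 1 to hour 12 of the 3 rising lipases when the array on the horizontal axis is left out, with horizontal lines for all 12 arrays and open circles where the limma adjusted p did not pass. CG6295 stays between 1.30 and 1.61, mag between 0.89 and 1.17, and CG6283 loses its call without hours 2, 3, 4 and 11.

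The same 3 genes were the members whose arrays of hours 9 to 12 all lay above those of hours 1 to 4, as 7.89% of tested probe sets did. CG6295 had a geometric mean of 387.4 over hours 1 to 4, 706.4 over hours 5 to 8 and 801.2 over hours 9 to 12. The means of mag over the same windows were 78.2, 116.9 and 128.0, and those of CG6283 were 133.2, 160.3 and 167.8. From the first to the last window the log2 differences were 1.05 ± 0.19 for CG6295, 0.71 ± 0.14 for mag and 0.33 ± 0.08 for CG6283 (limma adjusted p = 0.00709, 0.0114 and 0.0245; 3 members rose, beside 5.42% of all tested probe sets). That of CG6283 lost its call without hour 2, 3, 9, 11 or 12 (limma adjusted p = 0.0816, 0.0553, 0.0547, 0.0841 and 0.0571), and on the 7 arrays without male transcripts it was 0.28 (0.114).

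From the first to the second window CG6295 rose by 0.87 ± 0.19 (limma adjusted p = 0.0434), the only member to pass there, beside 1.81% of tested probe sets. The differences of mag, 0.58 ± 0.14, and CG6283, 0.27 ± 0.08, did not pass (limma adjusted p = 0.0606 and 0.111), though mag passed without hour 5 (0.68, 0.0278). The call of CG6295 was lost without hour 1, 2, 3, 6, 7, 8, 9 or 11, at differences from 0.72 to 0.96 (limma adjusted p from 0.0504 to 0.154). It was also lost with quantile normalization (0.79, limma adjusted p = 0.0552) and without the arrays holding male transcripts (0.73, 0.0946). From hours 5 to 8 to hours 9 to 12 the differences were 0.18 ± 0.19, 0.13 ± 0.14 and 0.07 ± 0.08. In that contrast limma called 0 of 11586 probe sets, with 771 at an unadjusted p under 0.05, of which 0 were members. A bend in the curve, tested by a squared term, was called for 0 members by limma, with 1 (Lip4) at an unadjusted p under 0.05 (0.0435, limma adjusted p = 0.867), and for 0.0345% of all tested probe sets.

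The other tested members of the 3R run gave nearly level readings. CG6277 had its lowest value of 120.8 at hour 8, a median of 129.0 and its highest of 142.9 at hour 3. The fitted change of CG6277 was 0.00 ± 0.07, with a 95% interval from -0.15 to 0.16 (limma adjusted p = 0.992). CG6271 lay between 99.2 and 111.5, with a median of 106.9, within the range of the highest controls. The change of CG6271 was also 0.00 ± 0.07, with an interval from -0.15 to 0.16 (limma adjusted p = 0.985). The trend of CG6283 differed from that of CG6277 by 0.41 and from that of CG6271 by 0.41. With CG6283 subtracted the limma adjusted p was 0.0302 and 0.0434. With the neighbour subtracted it was 0.0642 and 0.155, so neither difference passed both ways. A permutation of the hours, adjusted over 28 pairs of members, gave an adjusted p of 0.034 for CG6277 and 0.0761 for CG6271. Among the genes of the run that are not members, CG6296, CG17192 and CG17191 changed by -0.13 ± 0.11, 0.09 ± 0.08 and -0.16 ± 0.09, and none of them passed (limma adjusted p = 0.536, 0.562 and 0.318). CG17192 and CG17191 exceeded the highest control on none of the 12 arrays and CG6296 on 2. In the run 2 of 7 genes had a called rise, beside 8.44% of all tested probe sets, and one of these calls is the unstable one of CG6283.

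The trend of CG6295 differed from those of its neighbours when the difference itself was fitted. Of these neighbours CG6271 exceeded the highest control on 5 of 12 arrays, so its readings are not separated from background. Relative to CG6295, CG6283 had a trend of -1.06 ± 0.29, CG6277 of -1.47 ± 0.29 and CG6271 of -1.47 ± 0.29 (limma adjusted p = 0.000351, 1.32e-06 and 1.36e-06). In this fit every tested member had the same SE, while with mag subtracted the SE varied between members. The p-values with CG6295 subtracted therefore do not measure the spread of each pair, and the smallest should not be read as its strength. With the neighbour subtracted instead the limma adjusted p was 0.000325, 0.00155 and 0.00467, so these differences passed both ways. The same permutation of the hours gave an adjusted p of 0.00437 for each of them, over 28 pairs of members. With CG6295 subtracted 6 of the 7 other tested members passed, beside 99.1% of all probe sets in either direction. A pass in that fit is therefore not particular to the members. The remaining member was mag, at -0.47 ± 0.29 (limma adjusted p = 0.112). With mag subtracted instead, all 7 others passed, beside 95.6% of all probe sets. The difference of 1.02 between mag and Lip3, however, did not pass with Lip3 subtracted (limma adjusted p = 0.131). The permutation gave an adjusted p of 0.0346 for that pair and 0.0934 for mag and CG6295. The difference of 0.59 between mag and CG6283 passed both ways (the larger limma adjusted p = 0.0118), but not with the floor at the 40th percentile (0.26, 0.126) or without the arrays holding male transcripts (0.49, 0.0704). In the fit with mag subtracted CG6295 stood at 0.47 ± 0.23 (limma adjusted p = 0.0488), so whether CG6295 and mag differed in trend depended on the fit. With the floor at the 40th percentile the difference was 0.80 and passed whichever was subtracted (the larger limma adjusted p = 0.00584), as it did without hour 10 (0.59, 0.0373). The raised floor lifts mag at hours 1 to 4 and leaves CG6295 and CG6283 as they were. It therefore shrinks the change of mag, and moves both differences, by construction.

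**Figure D3:**
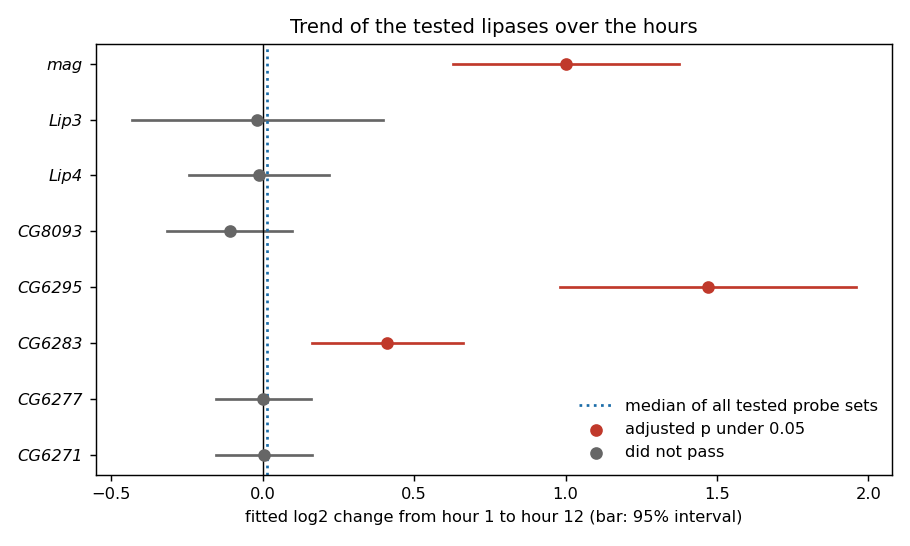
Fitted log2 change from hour 1 to hour 12 of the 8 tested lipases, with 95% intervals as bars, red where the limma adjusted p passed, and a dotted line for the median of all tested probe sets (0.01). The intervals of mag, CG6295 and CG6283 lie above 0, and those of the other 5 hold 0.

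Among the acid lipases, mag was the only member with a called trend. Lip3, the gene known from starvation, read 143.0, 147.0, 170.7, 185.4, 151.6 and 128.8 at hours 1 to 6. It went on at 132.0, 143.4, 187.1, 205.0, 140.2 and 129.5 at hours 7 to 12. The high readings fell at hours 3 and 4 and again at hours 9 and 10, with low readings at hours 6, 7 and 12. The fitted change was -0.02 ± 0.19, with an interval from -0.43 to 0.40 (limma adjusted p = 0.974). Within the 7 arrays without male transcripts it was -0.22 ± 0.17 and within the 5 with them 0.54 ± 0.17, and neither passed (limma adjusted p = 0.465 and 0.256). On the 5 arrays with male transcripts Lip3 had a median of 170.7 (from 147.0 to 205.0), and on the other 7 a median of 140.2 (from 128.8 to 185.4). The sets overlap through hour 4, and the part of males in these readings was not tested.

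Lip4, the reported FOXO target, had its lowest value of 128.6 at hour 5, a median of 140.6 and its highest of 168.3 at hour 2. Its 2 highest arrays were hours 2 and 12, near both ends of the series. The change was -0.01 ± 0.11, with an interval from -0.25 to 0.22 (limma adjusted p = 0.967). CG8093, a predicted acid lipase, lay between 118.2 at hour 6 and 151.1 at hour 2 with a median of 138.0. The change of CG8093 was -0.11 ± 0.10, with an interval from -0.32 to 0.10 (limma adjusted p = 0.564). The highest values of Lip4 and CG8093 both fell at hour 2.

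Lip1 and CG5966 were not tested, because they exceeded the floor on fewer than 3 arrays. The acid lipase Lip1 read between 24.5 and 31.0 on all 12 arrays, under the floor throughout. The neutral lipase CG5966 exceeded the floor at hour 1, with 67.2, and at hour 11, with 81.6, and lay between 30.6 and 52.9 on the other arrays. For both genes the array gives an upper bound and no order of hours.

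**Figure D4:**
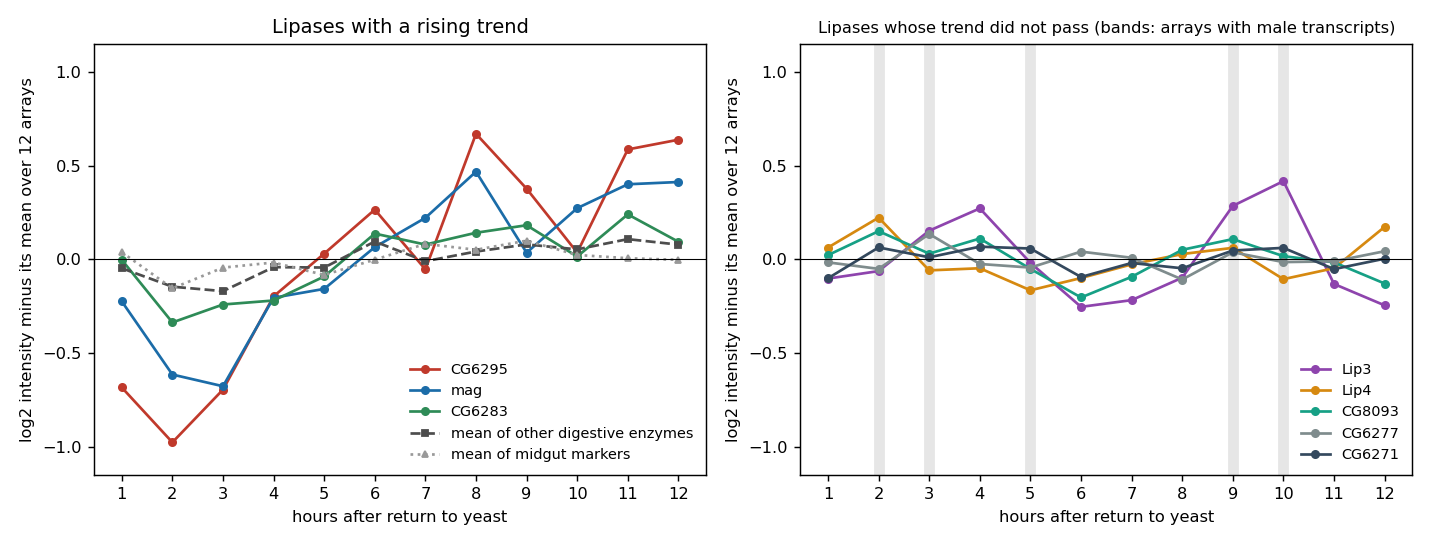
Log2 intensity of each tested lipase minus its mean over the 12 arrays, by hour, with the means of other digestive enzymes and of midgut markers on the left and grey bands for arrays with male transcripts on the right. CG6295, mag and CG6283 share low values at hours 2 and 3 and high values at hours 8 and 11. Male transcripts were present at hours 2 and 3 and not at hours 8 and 11. Lip3 peaks at hours 4 and 10.

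Over the 12 arrays the Pearson correlation of log2 intensity was 0.90 between mag and CG6295, 0.86 between mag and CG6283 and 0.84 between CG6295 and CG6283, given as a description since these values share the arrays and the rise. After each line was removed, the correlations of what remained were 0.60, 0.65 and 0.59. Other pairs were as strong around their lines, with -0.82 between CG6271 and CG6283, 0.67 between Lip3 and CG6271, 0.65 between Lip3 and CG8093, -0.62 between mag and CG6271 and -0.61 between mag and CG6277. CG6295 and mag both stood low at hour 2, an array with male transcripts, and high at hour 8, one without them. The arrays with male transcripts had lower medians than the others for mag (94.5 against 122.9), CG6283 (143.6 against 163.3) and CG6295 (616.0 against 725.0). They had higher ones for Lip3 (170.7 against 140.2), CG6271 (110.7 against 102.9) and CG8093 (139.0 against 134.6). For CG6277 the medians were 128.8 and 129.2. Ranges overlapped in each case, and the part of this split in the correlations was not tested. Lip3 and CG8093 correlated at 0.62 and Lip3 and CG6271 at 0.66, and no other pair among the remaining members exceeded 0.60. CG6271 lay within the range of the highest controls.

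Likeness was measured by Pearson's r, which ignores the size of a change, among 9255 probe sets of named genes above the floor on all 12 arrays. Closest to CG6295 were Fdx1, a mitochondrial ferredoxin, with r = 0.97, Irp-1B, an iron regulatory protein, with 0.97, and CG4020 with 0.96. Closest to mag were CG5641 with 0.95, CG18180 with 0.94 and ApepP, an aminopeptidase, with 0.94. Closest to CG6283 were CG5506 and Ugt49B1, both with 0.97, and COX7A, a subunit of cytochrome oxidase, also with 0.97. For Lip3 they were the odorant receptor Or49b with 0.96, dpr15 with 0.95 and CG6425 with 0.95, and for Lip4 Cyp12a4 with 0.89, Septin5 with 0.81 and Dnah3 with 0.81. The nearest gene was Obp85a for CG6271, PpN58A for CG6277 and CG14151 for CG8093, with r = 0.93, 0.94 and 0.91. The sizes differed, since Fdx1 read 138.4 at hour 1 and 169.6 at hour 12, and CG5641 read 72.2 and 81.4. CG5641, Ugt49B1, dpr15, CG6425, Septin5, Obp85a and PpN58A lay under the highest control of the array at both hours. These likenesses are descriptions over the same 12 arrays and carry no test.

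Related lipases outside the members were read against the 13.4% of all tested probe sets with a called trend. Of 16 other acid lipases on the array 9 could be tested, and 0 passed by limma, with 1 higher and 1 lower at an unadjusted p under 0.05 (median change -0.03). The smallest p-values among them belonged to CG31872 (0.43 ± 0.17), CG18530 (-0.20 ± 0.09), CG31089 (0.12 ± 0.13), CG11598 (-0.11 ± 0.12) and CG11608 (-0.06 ± 0.16), with limma adjusted p from 0.109 to 0.892. Of 27 other neutral lipases on the array, the yolk proteins included, 22 were tested, 4 rose and 1 fell. The yolk protein genes Yp1, Yp2 and Yp3 made up 3 of the 4 rises (2.96, 2.95 and 2.56). Without them 1 of 19 rose, CG17292, by 0.91 ± 0.12 (limma adjusted p = 0.000446), from 117.5 at hour 1 to 227.3 at hour 12, and 1 fell, CG6675, by -0.67 ± 0.15 (limma adjusted p = 0.00979), from 134.5 to 81.2. CG6675 exceeded the highest control on 3 of 12 arrays.

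Other digestive enzymes had called changes in both directions. Of 42 tested proteases, carbohydrate-cutting enzymes and lysozymes, 11 rose, 5 fell and 26 did not pass, with a median change of 0.04. Of all tested probe sets 8.44% rose and 4.97% fell. The Jonah proteases Jon25Bi, Jon25Bii, Jon25Biii and Jon99Ci had called rises (2.25 ± 0.21, 3.01 ± 0.36, 1.31 ± 0.17 and 1.02 ± 0.15), while epsilonTry, a trypsin, fell by -0.81 ± 0.12 (limma adjusted p = 0.000934). Direction did not follow these families, since the Jonah protease Jon99Fi fell (-0.70 ± 0.15, limma adjusted p = 0.00689) and the trypsin zetaTry rose (0.24 ± 0.06, limma adjusted p = 0.0181). The mean log2 intensity of the enzyme list was 8.16 at hour 1 and 8.29 at hour 12. With this mean as a covariate, which follows the hours too, the changes of CG6295, mag and CG6283 were 0.74 ± 0.33, 0.45 ± 0.25 and -0.02 ± 0.15, and none passed (limma adjusted p = 0.377, 0.511 and 0.982).

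Markers of the midgut were checked because the RNA is from whole animals. Of all tested probe sets 13.4% had a called trend. Of 9 markers analysed 0 passed by limma's trend, with 1 at an unadjusted p under 0.05 (median change 0.09). PGRP-SC2, which encodes a peptidoglycan amidase of the gut, had the smallest p, at 0.31 ± 0.11 (limma adjusted p = 0.08), followed by cad, a hindgut and posterior midgut regulator, at 0.35 ± 0.17 (0.24), and esg, a gene of midgut stem cells, at -0.13 ± 0.08 (0.369). The gut gene mex1 stood at 0.09 ± 0.07 and GATAe at 0.10 ± 0.10 (limma adjusted p = 0.528 and 0.594). The gut genes mex1, GATAe, drm and Ptx1 did not exceed the highest control on any array. The list's mean log2 intensity was lowest at hour 2, with 7.06, and highest at hour 9, with 7.31. With that mean as a covariate CG6295 changed by 1.34 ± 0.25 and mag by 0.84 ± 0.18 and both passed (limma adjusted p = 0.00785 and 0.0129), while CG6283 changed by 0.28 ± 0.11 and did not (0.135). The fat body list had a mean of 8.39 at hour 1 and 9.39 at hour 12. Of its 11 genes 6 rose, beside 8.44% of all tested probe sets. The part of the fat body in the lipase readings was not tested.

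**Figure D5:**
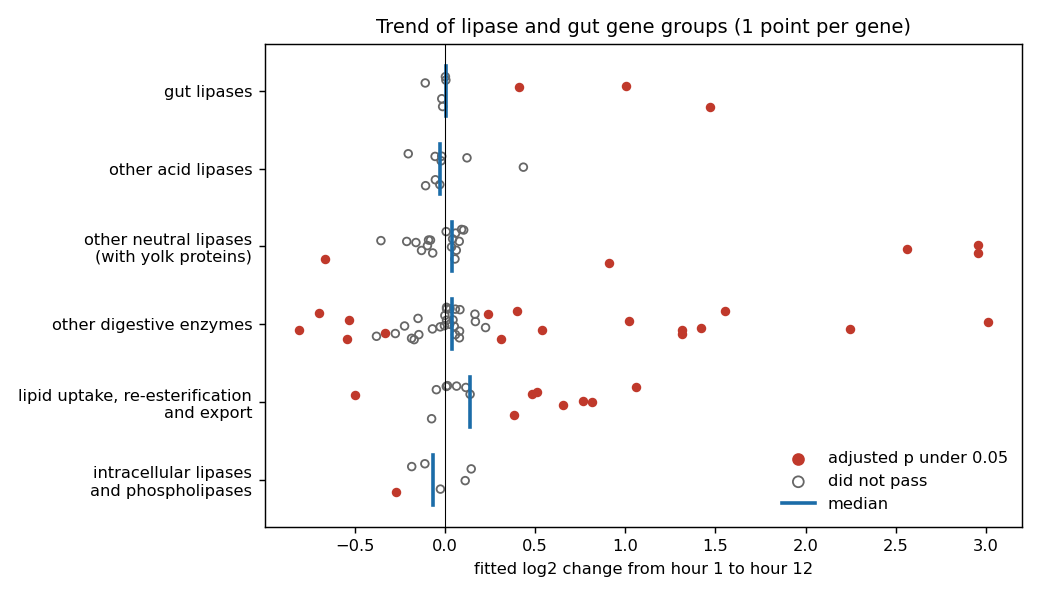
Fitted log2 change from hour 1 to hour 12 of every tested gene in the lipase and gut gene groups, 1 point per gene, red where the limma adjusted p passed, with a blue bar for the median of each group. Medians lie between -0.07 and 0.14, and called rises stand out in the gut lipases, the other neutral lipases, the digestive enzymes and the genes of lipid uptake and export.

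Genes that act after the lipases were taken as a list, read against the 8.44% of all tested probe sets that rose and with no test between lists. In the list for uptake, re-esterification and export of lipids 7 of 15 tested genes rose, 1 fell and 7 did not pass, with a median change of 0.14. The fatty acid binding protein gene fabp rose by 0.81 ± 0.11 (limma adjusted p = 0.000594), from 1550 to 3261. Acsl, which activates long fatty acids, rose by 0.51 ± 0.10, Npc2g, of the sterol-binding NPC2 family, by 0.65 ± 0.14, and Mtp, which loads lipid onto lipoproteins, by 0.48 ± 0.11 (limma adjusted p = 0.00594, 0.0091 and 0.0107). Apoltp, the lipid transfer particle gene, rose by 0.76 ± 0.16 (limma adjusted p = 0.00555). These genes are also used in other tissues, and Apoltp and apolpp, both among the 7, stand on the fat body list as well.

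Over all tested probe sets 8.44% rose and 4.97% fell. Of 6 tested intracellular lipases and phospholipases 0 rose by limma's trend (0 at an unadjusted p under 0.05), 1 fell and 5 did not pass. The secreted phospholipase gene sPLA2 was the one that fell, by -0.27 ± 0.08 (limma adjusted p = 0.0418), and it exceeded the highest control on 2 arrays. bmm, the storage fat lipase of the fat body, stood at -0.18 ± 0.16 (limma adjusted p = 0.555). The phospholipase genes iPLA2-VIA and PAPLA1 stood at -0.11 ± 0.07 and 0.15 ± 0.15, and dob, a relative of bmm, at 0.11 ± 0.12 (limma adjusted p = 0.405, 0.63 and 0.651). Of the reported regulators of lipases and gut fat metabolism, 5 were tested and 0 passed by limma (0 at an unadjusted p under 0.05), with Hnf4 at 0.19 ± 0.12 (limma adjusted p = 0.369), foxo at -0.05 ± 0.12 (0.877) and sug, a sugar-response factor, at -0.17 ± 0.19 (0.674). GATAe, given above, and daw, an activin-like ligand, at 0.03 ± 0.09 (limma adjusted p = 0.883), did not pass either. Hr96, a nuclear receptor reported to control mag, read at most 31.9 and was under the floor on all arrays.

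A measure that can follow RNA quality moved with the hours. On the log2 scale the actin control for the 3' end of the transcript exceeded the one for its 5' end by 1.13 at hour 1 and by 0.69 at hour 12. With it as a covariate, the changes of CG6295, mag and CG6283 were 1.12 ± 0.38, 0.87 ± 0.30 and 0.38 ± 0.20, and none passed (limma adjusted p = 0.177, 0.183 and 0.436). Because the covariate runs with hour, the standard errors grew, and how much of the changes belongs to either cannot be told apart.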

How the data were processed

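RNA of whole flies was measured on 12 Affymetrix arrays, 1 per hour. Per the labels, the authors deposited linear intensities, normalized between arrays with dChip by an invariant selection. The background model and the software version are not stated in what was used here. Each member had 1 probe set with a single symbol in the platform annotation, and all 10 Entrez identifiers were found in the RefSeq gene table (assembly Release 6 plus ISO1 MT), which gave names and gene order only.

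Intensities under the 20th percentile of the table (57.2) were raised to it and taken to log2. Probe sets exceeding it on 3 or more arrays entered limma 3.58.1 (R 4.3.3), which left 11586 of 13966. Slopes on hour, a squared term and means of 3 windows were fitted over the whole table with Benjamini-Hochberg adjustment. Differences in trend were fitted after subtracting one member from every probe set. Where 2 members are compared, the adjusted p depends on which of them was subtracted. The trend fit was checked on simulated data.

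All members are named. Of each list of related or pathway genes the 5 with the smallest p are named, except for the fat body, male accessory gland and testis lists. Each tested member's most similar genes by Pearson correlation are named too. Other list genes (Jon99Fi, zetaTry, drm, Ptx1, Hr96, apolpp, CG6296, CG17191 and CG17192) were named after their values were seen. Members and lists were chosen with earlier results of these data known. Symbol lists stood in for a planned protein alignment, and the planned protein and promoter motif searches were not run, for want of sequences. All columns of the table belonged to these arrays, and the number of arrays limits the precision. Alternatives were other normalizations, floors, filters, time scales and variance models, hours left out, and male, gut or actin measures as covariates.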

Additional observations from a re-analysis of the deposited data

How the results depend on the processing

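The rises of CG6295 and mag kept their sign under all 29 alternatives and their call under 24 and 23 of them, the one of CG6283 its call under 15. Leaving out each hour gave 2 to 3 called members and 945 to 1993 called probe sets, against 1554 with all arrays; dropping hours 1, 2, 11 and 12 gave 996, 1031, 945 and 997. Odd hours gave 713 probe sets and 1 member, CG6295. Even hours gave 0 and 0 by limma (1475 and 3 at an unadjusted p under 0.05), and ranks of the arrays also gave 0 and 0 (2982 and 3 unadjusted). Among alternatives added after seeing the data, the 5 arrays with male transcripts gave 36 probe sets and 0 members (4 members unadjusted), the actin covariate 228 and 0 (2 unadjusted), and the digestive enzyme covariate 46 and 0 (1 unadjusted), under which CG6283 reversed to -0.0179. The midgut covariate gave 1001 probe sets. For even and odd hours and the male arrays fewer arrays were used. With ranks every tested member had the same SE of 3.09, which limits how small a p-value can get. For the others the cause was not tested. CG6283 also lost its call with no filter (limma adjusted p = 0.0577) and with log2 of hour (0.0752).

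The squared term was called for 4 probe sets, for 8 with quantile normalization, 9 with the floor at the 40th percentile, 0 by limma without the arrays holding male transcripts (689 at an unadjusted p under 0.05), and 0 to 24 with an hour left out. Calls between the first and second window numbered 219, 81 with quantile normalization, 511 without male arrays and 0 to 491 with an hour left out. From hours 5 to 8 to hours 9 to 12 they numbered 0, 1 without male arrays and 0 to 3 with an hour left out, and from the first window to the last 977, or 415 to 1493 with an hour left out. Of 28 pairs of members 11 differed in trend whichever was subtracted, and 10 to 14 under the alternatives tried. No paired analysis was possible because there is 1 group, whose numbers only name the hours.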

Other observations

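The arrays also carry 4 control probe sets for yeast transcripts, which entered no comparison. All 4 were highest at hour 1. The one for RIP1 read 170.4 at hour 1, 129.4 at hour 2, 90.2 at hour 3 and 61.7 at hour 12. The one for URA3 read 89.5 at hour 1 and 52.4 at hour 12, and the one for WBP1 63.8 and 27.4. The median of the bacterial and mouse controls was 48.2 at hour 1 and 44.5 at hour 12. The yeast control for RIP1 exceeded the highest of them at hours 1 and 2 only, and the other yeast controls on no array. The relation of the yeast controls to the lipase readings was not tested.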
